A study of Mus musculus with 6 samples.

Results

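Collagen genes were taken as every row of the gene count table whose mouse symbol has the form of a collagen chain gene (Col, a type number, a, a chain number). The table held 26971 features, and 41 of them were collagen genes. They were divided by the type number into 10 fibrillar genes (types 1, 2, 3, 5, 11, 24 and 27), 8 network-forming genes (types 4, 8 and 10) and 23 other genes. Tests used features with 10 or more counts in 3 or more libraries, which left 14398 features and 27 collagen genes, of which 7 were fibrillar, 7 network-forming and 13 other. The remaining 14 collagen genes are described by their counts. Male C57BL/6 mice gave the kidney cortex RNA 1 day after surgery, and both groups had undergone IRI (commonly ischaemia-reperfusion injury, damage to a kidney whose blood supply is cut off and let back in). The IRI group (labelled CLK_IRI) and the IRI group with added renal congestion (labelled Cong_IRI, treatment IRI with IVCC) had 3 libraries each, numbered 1 to 3, and the labels do not expand CLK or IVCC. No uninjured kidney was analysed here, so the comparison is of IRI with congestion against IRI alone. Nothing in the labels says whether the libraries came from separate animals, so the spread that p-values rest on may be technical.

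Collagens are secreted proteins of 3 chains wound into a triple helix. Fibrillar collagens such as types I and III assemble into the fibres of the interstitium and of scars. Type IV collagen forms the sheet-like network of basement membranes, with one heterotrimer in nearly all basement membranes and another in the mature glomerular and some tubular basement membranes. Other collagens decorate fibrils, make beaded filaments, cross cell membranes or, as with types XV and XVIII, carry glycosaminoglycan chains within basement membranes.

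Several type IV genes lie head to head and are transcribed away from each other, and the sequence at their starts is shown because the results below turn on whether such neighbours had similar values. All sequences are from RefSeq, build GRCm38.p6. Col4a1 (chr8:11198423-11312826, minus strand) and Col4a2 (chr8:11312805-11449287, plus strand) have gene models that overlap by 22 bases of 5′ exon, at chr8:11312805-11312826, printed on the plus strand in capitals because every base belongs to both models. Col4a4 (chr1:82448423-82586849, minus strand) and Col4a3 (chr1:82586921-82722059, plus strand) are separated by 71 bases, at chr1:82586850-82586920, printed on the minus strand. Col8a1 (chr16:57624258-57754737, minus strand) is shown by the 250 bases before its start, at chr16:57754738-57754987, with its 4 matches to the GC box GGGCGG on either strand in capitals.
Col4a1 and Col4a2 overlap: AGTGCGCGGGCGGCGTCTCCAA
Col4a4 to Col4a3 gap: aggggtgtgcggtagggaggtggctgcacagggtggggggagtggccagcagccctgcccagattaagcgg
Col8a1 upstream: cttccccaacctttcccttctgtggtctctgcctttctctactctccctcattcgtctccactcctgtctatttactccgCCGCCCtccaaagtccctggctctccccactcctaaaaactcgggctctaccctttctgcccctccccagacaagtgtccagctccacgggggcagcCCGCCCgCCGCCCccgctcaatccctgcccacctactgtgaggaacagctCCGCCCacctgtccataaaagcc
In the RefSeq windows of 250 bases before to 50 bases after a gene's start, 33 of the 41 collagen genes, and 21 of the 27 tested ones, had an entry. The GC box GGGCGG, searched on both strands, was in 14 of those 21 windows, against 35.7% of all 32851 windows. CCAAT was in 8 of 21 against 37.4%, the TEAD motif GGAATG in 5 of 21 against 14.7%, and TATAAA in 2 of 21 against 13.6%. The windows of Col4a1 and Col4a2 share 78 bases, so they are not separate observations. These matches describe letters in the windows and were not related to the libraries' values.

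Total counts per library ranged from 10865860 to 14350425. Levels are given as CPM, the count of a gene relative to the library's TMM-scaled total. The libraries numbered 1 stood apart in both groups. Their summed level of 8 markers of distal nephron and collecting duct was 2061 CPM in IRI and 2057 CPM in congested IRI, against 3983 to 7061 CPM in the other 4 libraries. Their summed level of 6 neutrophil markers was 65.9 and 199 CPM, against 4.33 to 15.5 CPM in the others. All 8 proximal tubule markers passed the count limit for tests, as did all 8 podocyte markers, which summed to 315 to 402 CPM. Passing this limit does not measure how much of a sample was cortex. Most of the proximal tubule sum came from Kap. It was 53598, 42659 and 28324 CPM in IRI libraries 1, 2 and 3 and 26132, 24299 and 27380 CPM in congested libraries. Every congested library was lower in this sum. Of the 8 markers, 5 had a log2 fold change above 0, against 49.7% of all genes, with a median of 0.02. Between replicate numbers, 5 of the 8 were lowest in number 1 at an edgeR adjusted p under 0.05, against 4.35% of all genes. The neutrophil and distal nephron sums overlapped between the groups, while the tested markers of each list had log2 fold changes of 1 sign. The distal nephron sum was 2061, 7061 and 6852 CPM in IRI and 2057, 3983 and 6845 CPM in congested IRI. Within equal replicate numbers, 3 of the 8 distal markers were lower in all 3, against 13.1% of all genes, and 5 were mixed. All 5 tested neutrophil markers had a log2 fold change above 0, with a median of 1.73, and all 5 had an unadjusted p under 0.05 in edgeR's test with replicate number in the model (the replicate block), against 4.06% of all genes on that side. All 8 distal nephron and collecting duct markers were below 0, with a median of -0.49, and 3 of them had an unadjusted p under 0.05 with the block, against 2.99% of all genes. Without the block, 0 of the 5 neutrophil markers were higher at an unadjusted p under 0.05 by edgeR, against 0.979% of all genes. In that fit 0 of the 8 distal markers were lower, against 1.02%. No marker of these 3 lists was called by edgeR between the groups in either fit. The part of these cell types in the collagen values was not tested. In bulk RNA, a different number of cells of a type and a different amount of RNA per cell cannot be told apart.

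No collagen gene passed the test between congested IRI and IRI, and 23 of 27 had a log2 fold change above 0. The count of calls was 0 of 27 by edgeR's quasi-likelihood test at an adjusted p under 0.05, where 0% of all 14398 genes were called. The smallest adjusted p of a collagen gene was 0.935. With replicate number entered as a block, the count was again 0 of 27, with a background of 0% and a smallest adjusted p of 0.578. At an unadjusted p under 0.05, 1 collagen gene was higher and 0 were lower, against 0.979% and 1.02% of all genes. With the block, 4 were higher and 0 lower, against 4.06% and 2.99%. DESeq2 called 0 collagen genes and had 2 of 27 at an unadjusted p under 0.05, against 355 of all 14398 genes, and limma-voom called 0 and had 1, against 289.

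Of all genes tested, 49.7% had a log2 fold change above 0. All 7 fibrillar and all 7 network-forming genes had a log2 fold change above 0, as did 9 of the 13 others. The median log2 fold change was 0.28 over the 27 genes, 0.28 in the fibrillar, 0.45 in the network-forming and 0.06 in the other class, beside -0.00 over all genes. The count above 0 was 23 under each of the scalings tried (TMM, RLE, upper-quartile and total counts). It was 15 when congested library 2 was left out, with a median of 0.04, and was 17 without IRI library 1 and 17 without congested library 3. The groups did not overlap, with every congested library higher, in Col4a1, Col4a2, Col12a1 and Col18a1, which is 4 of 27 against 3.38% of all genes, and the reverse held for 0 collagen genes against 3.1%. Within equal replicate numbers, the congested library was higher in all 3 for 11 collagen genes and lower in all 3 for 2, against 13.1% of all genes in each direction.

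**Figure D1:**
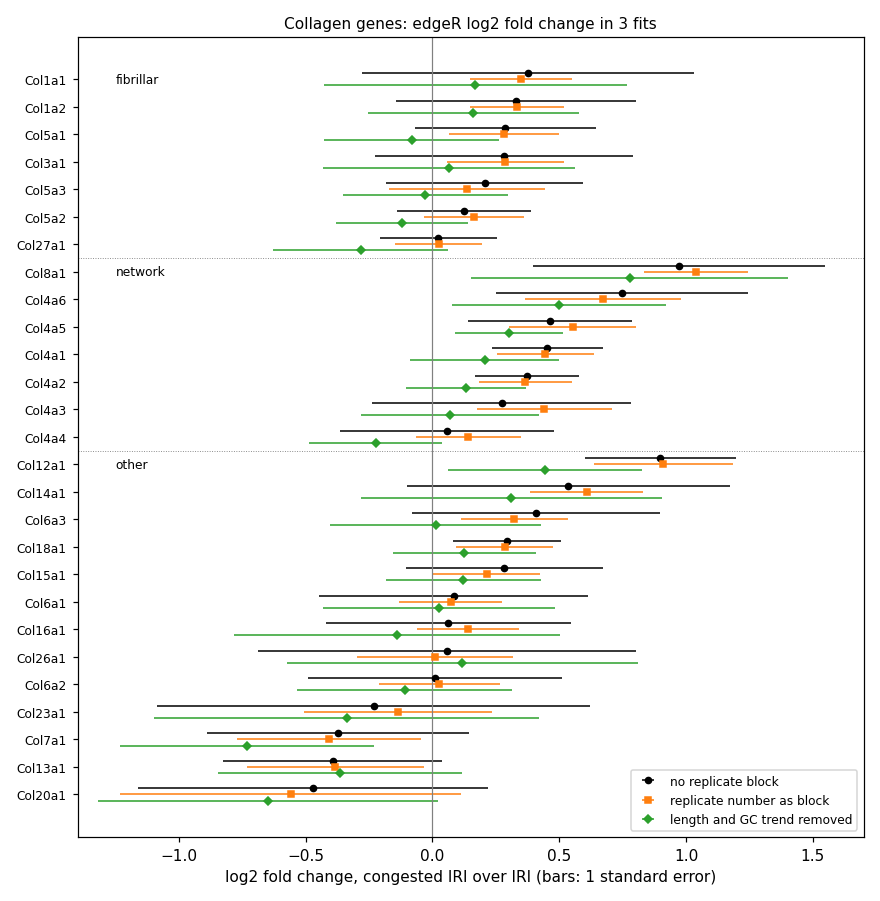
Log2 fold change of congested IRI over IRI for the 27 tested collagen genes by class, with bars of 1 standard error, from edgeR without a block (black), with the replicate number as a block (orange) and after removal of a smooth trend with gene length and GC in each library (green). The black points lie right of 0 for 23 genes and the green points for 16, and the orange bars are mostly the shortest.

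Network-forming collagens had a class median of 0.45 with all 6 libraries. It was below the fibrillar median without IRI library 2 (0.44 against 0.63), without congested library 1 (0.39 against 0.53) and without number 1 of both groups with the block (0.39 against 0.42). Col4a1 and Col4a2, the paired chains of the type IV collagen found in nearly all basement membranes, both had every congested library above every IRI library. Col4a1 was at 342, 318 and 312 CPM in IRI libraries 1, 2 and 3 and at 504, 379 and 448 CPM in congested libraries 1, 2 and 3. The group means were 324 ± 15.8 and 444 ± 62.7 CPM (SD, n = 3 each). The congested libraries also varied more among themselves than the IRI libraries did. The log2 fold change was 0.45 (standard error, SE, 0.22), and the edgeR adjusted p was 0.935.

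Col4a2 was at 171, 159 and 175 CPM in IRI libraries 1, 2 and 3 and at 213, 191 and 250 CPM in the congested libraries. Its log2 fold change was 0.37 (SE 0.20). Because these neighbours encode chains of one trimer, their ratio per kilobase of exon was followed in each library. Col4a1 over Col4a2 was 1.77, 1.77 and 1.58 in IRI libraries 1, 2 and 3 and 2.10, 1.75 and 1.59 in congested libraries 1, 2 and 3. The ratios of equal-numbered libraries 2 and 3 were close to each other, and congested library 1 had the highest ratio.

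Col4a3, Col4a4 and Col4a5, the chains of the type IV collagen of the mature glomerular basement membrane, overlapped between the groups. Col4a3 was at 61.9, 133 and 258 CPM in IRI libraries 1, 2 and 3 and at 113, 230 and 203 CPM in the congested libraries. Congested minus IRI was 0.86 and 0.80 on the log2 scale in numbers 1 and 2 and -0.34 in number 3. Its head-to-head neighbour Col4a4 was at 76.9, 163 and 229 CPM against 106, 191 and 191 CPM, with differences of 0.46, 0.23 and -0.26. Both genes thus had a positive difference in numbers 1 and 2 and a negative one in number 3. Col4a5 was at 22.4, 41.6 and 56.3 CPM against 51.6, 59.0 and 55.2 CPM, with differences of 1.20, 0.50 and -0.03. Exons of Col4a3 share 563 bases with the opposite-strand gene C430014B12Rik, which had 29 counts in all libraries together.

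Over these 3 genes the log2 fold changes were 0.27 for Col4a3, 0.06 for Col4a4 and 0.46 for Col4a5, with standard errors of 0.51, 0.42 and 0.32. Col4a3 was at -0.10 without IRI library 1 and 0.91 without IRI library 3. The widely expressed pair over the glomerular trio (Col4a1 and Col4a2 over Col4a3, Col4a4 and Col4a5, per kilobase of exon) was 4.26, 1.92 and 1.22 in IRI libraries 1, 2 and 3. It was 3.44, 1.60 and 2.10 in the congested libraries. Libraries numbered 1 had the highest ratio in both groups, and the groups overlapped throughout. The 8 podocyte markers, for the cells that make the trio in the glomerulus, summed to 345, 315 and 344 CPM in IRI and 338, 402 and 337 CPM in congested IRI and did not separate libraries 1 from the rest.

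Col8a1 is a short-chain network collagen of blood vessel walls. Its log2 fold change without the block moved strongly when a single library numbered 1 was left out. Col8a1 was at 18.7, 6.06 and 5.83 CPM in IRI libraries 1, 2 and 3 and at 33.7, 14.5 and 11.9 CPM in the congested libraries. Library 1 was the highest of each group, so the groups overlapped while every equal-numbered congested library was higher, by 0.85, 1.24 and 1.01 on the log2 scale. Without the block, the log2 fold change was 0.97 (SE 0.58) and an unadjusted p of 0.132. With the replicate block it was 1.04 (SE 0.21), an unadjusted p of 0.000936 and an edgeR adjusted p of 0.578. The value of the fit with no block was 1.75 without IRI library 1 and 0.38 without congested library 1. Its partner Col8a2 was not tested, with 0, 1 and 1 counts in IRI libraries and 1, 4 and 3 counts in congested libraries. Col4a6, a type IV chain of some tubular and muscle basement membranes, was the least abundant tested network gene. It had 1.43, 2.73 and 2.38 CPM against 1.62, 5.35 and 4.0 CPM and a log2 fold change of 0.75 (SE 0.50).

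**Figure D2:**
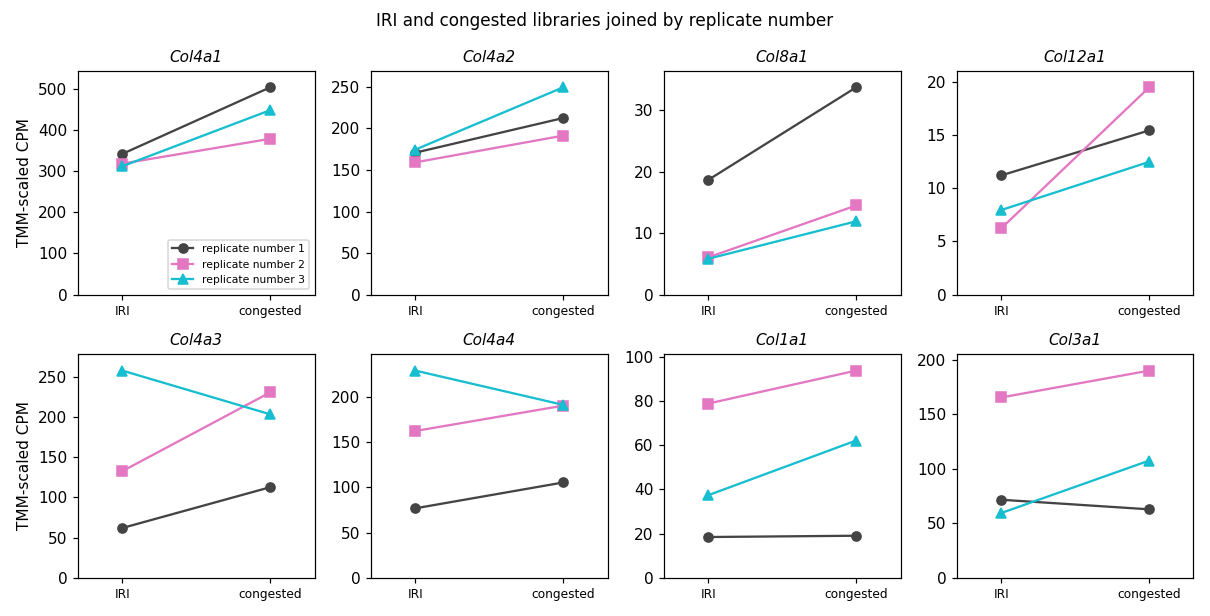
CPM of 8 collagen genes in the IRI and congested libraries, joined by replicate number (colour and marker), each panel with its own axis from 0. Lines for Col4a1, Col4a2, Col8a1 and Col12a1 go up in all 3 numbers, and lines for Col4a3 and Col4a4 go up in numbers 1 and 2 and down in number 3.

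The 7 tested fibrillar genes all overlapped between the groups, and none was called by edgeR in either fit. Without the block each had a log2 fold change smaller than its SE. With the block, Col1a1 was at 0.35 (SE 0.20), Col1a2 at 0.33 (SE 0.19), Col3a1 at 0.29 (SE 0.23) and Col5a1 at 0.28 (SE 0.22), each larger than its SE. Col1a1 and Col1a2 encode the chains of type I collagen, the main fibre-forming collagen of interstitial matrix. Col1a1 was at 18.4, 78.8 and 37.4 CPM in IRI libraries 1, 2 and 3 and at 19.0, 93.7 and 62.1 CPM in the congested libraries. Its differences were 0.04, 0.25 and 0.73 in numbers 1, 2 and 3, and its log2 fold change was 0.38 (SE 0.66). That value was 1.06 without IRI library 2, 0.01 without IRI library 1 and -0.14 without congested library 2. Col1a2 was at 36.6, 102 and 55.2 CPM against 41.4, 116 and 85.0 CPM, with a log2 fold change of 0.33 and a standard error of 0.47. Both genes were highest in the libraries numbered 2 and lowest in those numbered 1, in both groups.

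Col3a1, whose type III collagen joins type I in fibres, was at 71.6, 165 and 59.4 CPM in IRI and 62.8, 190 and 107 CPM in congested IRI. Its differences were -0.19, 0.20 and 0.85 in numbers 1, 2 and 3. The value of Col3a1 over Col1a1 per kilobase of exon was 2.60, 1.40 and 1.06 in IRI libraries 1, 2 and 3 and 2.21, 1.36 and 1.16 in congested libraries, so this ratio too separated the numbers and not the groups. Col1a1 over Col1a2 per kilobase was 0.955, 1.47 and 1.28 against 0.871, 1.52 and 1.38, with both libraries numbered 1 the lowest. The size of both ratios depends on the gene length used, and their order among libraries does not. Exon bases were 12426 for Col1a2, 9816 for Col3a1 and 6563 for Col1a1, against 5348, 5564 and 5930 in their longest transcripts.

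Type V collagen is a minor partner that sits within type I fibres. Col5a1 was at 9.93, 18.3 and 10.4 CPM in IRI and at 9.96, 20.6 and 16.6 CPM in congested IRI, and Col5a2 at 19.5, 36.2 and 24.1 CPM against 26.7, 32.6 and 27.7 CPM. Col5a3 was at 3.50, 3.58 and 4.33 CPM against 2.33, 4.91 and 5.88 CPM. Their log2 fold changes were 0.29, 0.12 and 0.21, with SEs of 0.36, 0.26 and 0.39. Col27a1 stood out among fibrillar genes by how closely equal numbers matched, at 95.4, 66.2 and 83.7 CPM in IRI and 95.6, 67.9 and 85.8 CPM in congested IRI. Its log2 fold change was 0.02 (SE 0.23), and its differences were 0.00, 0.04 and 0.04.

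Among the other collagens, Col12a1 was the gene with an unadjusted p under 0.05. Col12a1, a fibril-associated collagen of type I fibres, was at 11.2, 6.23 and 7.95 CPM in IRI libraries 1, 2 and 3 and at 15.4, 19.5 and 12.5 CPM in the congested libraries. The groups did not overlap, and the means were 8.46 ± 2.53 and 15.8 ± 3.52 CPM (SD, n = 3 each). The log2 fold change was 0.90 (SE 0.30), an unadjusted p of 0.0179 and an edgeR adjusted p of 0.935. Col14a1, another fibril-associated collagen, overlapped between groups at 3.02, 15.5 and 10.2 CPM against 5.47, 19.3 and 16.7 CPM. Its congested library was higher in each number, by 0.82, 0.31 and 0.71, and its log2 fold change was 0.61 (SE 0.22) and an unadjusted p of 0.0252 with the replicate block.

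Col18a1, the core of a basement membrane heparan sulfate proteoglycan from which endostatin is cut, was the most abundant of the other collagens. It was at 291, 281 and 273 CPM in IRI libraries 1, 2 and 3 and at 400, 304 and 332 CPM in the congested libraries, without overlap. The log2 fold change was 0.29 (SE 0.21). The related Col15a1 was at 14.1, 24.8 and 20.8 CPM against 12.2, 31.6 and 28.9 CPM, and the groups overlapped.

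The type VI genes encode the chains of beaded filaments around cells, and their values were lowest in the library numbered 1 of each group. Col6a1 was at 7.71, 24.9 and 17.8 CPM in IRI and 7.54, 23.2 and 22.5 CPM in congested IRI. Col6a2 was at 5.72, 18.2 and 12.6 CPM against 6.01, 13.8 and 16.9 CPM. Col6a3 was at 8.58, 20.1 and 14.7 CPM against 8.25, 29.4 and 19.8 CPM. In all 3 genes both libraries numbered 1 were lower than the other 4. The log2 fold changes were 0.08, 0.01 and 0.41, with standard errors of 0.53, 0.50 and 0.49.

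Col16a1, a fibril-associated collagen, had the opposite order, with 39.9, 14.7 and 14.7 CPM in IRI and 36.6, 19.9 and 15.9 CPM in congested IRI. Col13a1, a membrane-spanning collagen, was at 2.54, 1.28 and 2.38 CPM against 2.24, 1.25 and 1.26 CPM, and its log2 fold change was -0.39 (SE 0.43). Col7a1, the anchoring fibril collagen, and Col13a1 were the genes with a lower congested library in all 3 numbers. The others not given above (Col7a1, Col20a1, Col23a1 and Col26a1) had log2 fold changes between -0.47 for Col20a1 and 0.06 for Col26a1.

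Levels of different genes were compared per kilobase of exon, as the mean over the 6 libraries. Col4a1 was the highest at 51.4 CPM per kilobase, followed by Col18a1 at 44.6, Col4a2 at 29.2, Col4a3 at 16.7 and Col4a4 at 15.0. Col3a1 followed at 11.2, Col1a1 at 7.86, Col4a5 at 7.09, Col27a1 at 6.33 and Col1a2 at 5.85 CPM per kilobase. Exon bases here join the exons of all annotated transcripts of a gene, and the order depends on that choice. They were 12426 for Col1a2 against 5348 bases in its longest transcript, and 6563 against 5930 for Col1a1. Col1a2 had the higher mean CPM (72.7 against 51.6), so per kilobase of longest transcript it was above Col1a1. For Col3a1 the lengths were 9816 and 5564, and for Col27a1 13022 and 7612. Most neighbours in this order overlapped in their ranges across libraries, Col4a1 with Col18a1 and Col4a2 with Col4a3 included. Per kilobase of exon, Col3a1 was above both Col4a3 and Col4a4 in IRI libraries 1 and 2.

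**Figure D3:**
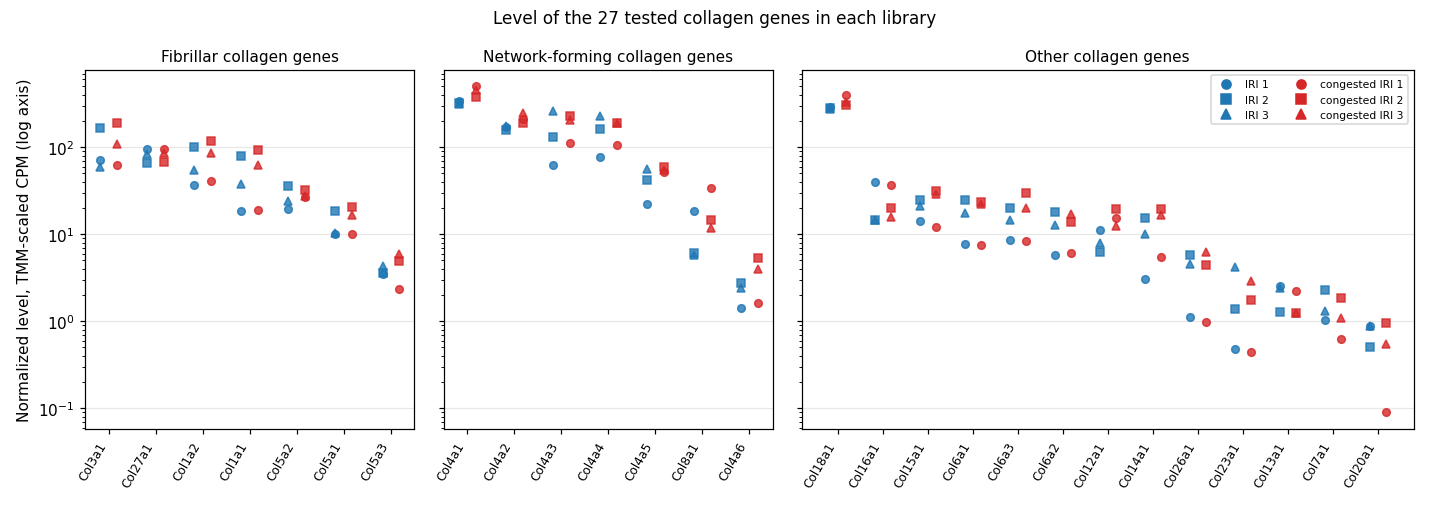
CPM of the 27 tested collagen genes in each library on a log axis, by class, with IRI in blue, congested IRI in red and the replicate number by marker. Col4a1 and Col18a1 are the highest in their panels, and for Col1a1, Col6a1, Col6a2 and Col6a3 both circles (number 1) sit below the squares and triangles.

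The 14 collagen genes that were not tested had 1 to 102 counts over all libraries. They were Col11a1, Col11a2 and Col24a1 of the fibrillar class, Col8a2 of the network-forming class, and Col6a4, Col6a5, Col6a6, Col9a2, Col9a3, Col17a1, Col19a1, Col22a1, Col25a1 and Col28a1. At the count limit, Col20a1 was just inside with 11, 6 and 10 counts in IRI libraries 1, 2 and 3 and 1, 13 and 7 in congested libraries. Col17a1, a hemidesmosome collagen of epithelia, was just outside with 18, 9 and 2 against 4, 60 and 9 counts, and most of its counts came from congested library 2. Col6a6 was also just outside, with 0, 10 and 8 against 1, 6 and 15 counts.

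Many collagen genes differed between the replicate numbers, across both groups. In the edgeR fit with group and number, 12 of 27 passed an adjusted p under 0.05 for the number, against 7.94% of all genes. Of these, 10 were lowest in number 1, against 4.35% of all genes, namely Col1a1, Col1a2, Col3a1, Col4a4, Col6a1, Col6a2, Col6a3, Col14a1, Col23a1 and Col26a1. The 2 that were highest in number 1 were Col8a1 and Col16a1, against 3.49% of all genes. For Col1a1 the log2 fold change was 2.19 for number 2 over 1 and 1.37 for number 3 over 1, with an edgeR adjusted p of 0.00765. For Col14a1 these were 2.08 and 1.67 (edgeR adjusted p = 0.0117), and for Col8a1 they were -1.41 and -1.59 (edgeR adjusted p = 0.0127). The labels do not say what the libraries of a number share, and the neutrophil and distal nephron marker sums that set number 1 apart were given above. Their part in this difference was not tested.

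**Figure D4:**
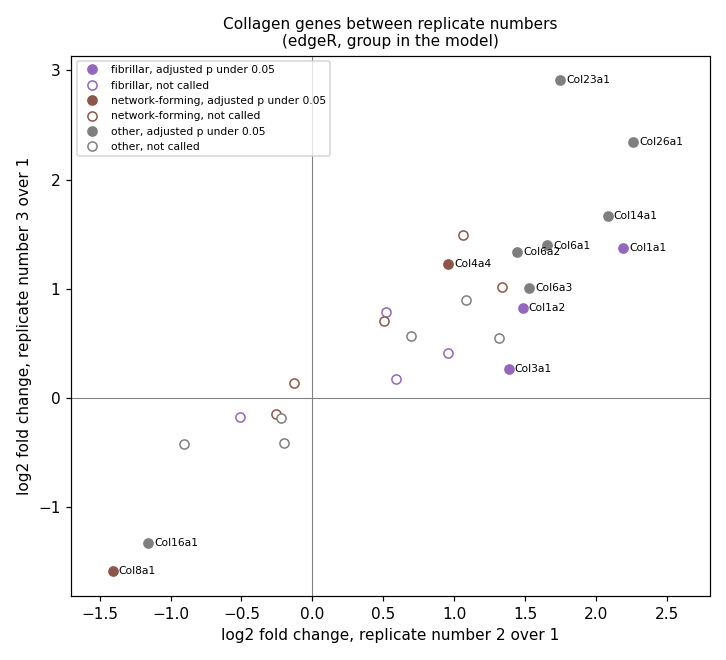
Log2 fold change of replicate number 2 over 1 (horizontal) and 3 over 1 (vertical) for the 27 tested collagen genes, coloured by class and filled where the edgeR adjusted p for the number is under 0.05. Filled points for 10 genes lie in the upper right, and Col8a1 and Col16a1 lie in the lower left.

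When the libraries numbered 3 were left out of both groups and the number was kept as a block, 6 of 27 collagen genes passed the edgeR test, all higher in congested IRI. In that fit 38.1% of all genes were called, so this count is below the background. The genes were Col4a1 at a log2 fold change of 0.40 (adjusted p = 0.0139), Col4a3 at 0.83 (adjusted p = 4.81e-06), Col4a4 at 0.34 (adjusted p = 0.0238), Col4a5 at 0.84 (adjusted p = 0.000716), Col8a1 at 1.03 (adjusted p = 8.3e-05) and Col12a1 at 1.03 (adjusted p = 0.00964). Of these 6, 5 were network-forming genes, and Col4a2 had an adjusted p of 0.0507. The fit had 1 residual degree of freedom, and its biological coefficient of variation was 0.116, against 0.233 without number 1 and 0.247 without number 2. Over all genes the congested minus IRI differences of numbers 1 and 2 correlated at 0.58, and number 3 with them at -0.203 and -0.165. Over the 27 collagen genes the correlations were 0.176 for numbers 1 and 2, 0.314 for 1 and 3 and 0.202 for 2 and 3. The correlations are across genes, which are not independent replicates. Without number 1, and without number 2, 0 collagen genes were called.

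Collagen transcripts are long and rich in G and C, and fewer of them lay above 0 with trends in both removed. The median longest transcript was 6119 bases in tested collagen genes and 3273 bases in all genes, and the median GC content was 56.1% against 49.6%. With a smooth trend in length and GC content removed from each library, 16 of 27 collagen genes had a log2 fold change above 0, against 48.9% of all genes. The median became 0.06 over all 27, with -0.03 in the fibrillar class, 0.21 in the network-forming class and 0.01 in the others. Of the fibrillar genes 3 of 7 were above 0, of the network-forming genes 6 of 7, with Col4a4 at -0.22, and of the others 7 of 13. Col8a1 was at 0.78, Col12a1 at 0.45, Col4a1 at 0.21 and Col4a2 at 0.13 on this scale. Whether length or GC content plays a part in the differences was not tested beyond this.

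Summed over all 41 genes, collagen RNA was at 1338, 1713 and 1700 CPM in IRI libraries 1, 2 and 3 and at 1777, 2073 and 2034 CPM in congested libraries, without overlap. The fibrillar sum was 256, 471 and 275 CPM against 259, 527 and 391 CPM, and it overlapped. The network-forming sum was 694, 823 and 1038 CPM against 1021, 1070 and 1164 CPM, and it overlapped in IRI library 3. The sum of the others was 389, 420 and 386 CPM against 497, 476 and 480 CPM, without overlap. Most of the last sum is Col18a1.

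Markers of cells that make collagen were summed in the same way. The 7 vascular smooth muscle markers, which include Acta2, also a marker of myofibroblasts, summed to 151, 144 and 120 CPM in IRI libraries 1, 2 and 3 and to 267, 255 and 231 CPM in congested libraries, without overlap. All 7 had a log2 fold change above 0, against 49.7% of all genes, 3 were higher at an unadjusted p under 0.05, against 0.979%, and 0 were called by edgeR. Acta2 was at 58.8, 57.4 and 22.6 CPM against 140, 78.1 and 94.4 CPM. Acta2 and Mylk made up most of the sum, with means of 104 and 98.1 CPM in congested IRI of a summed mean of 251 CPM. The groups did not overlap in Acta2, Mylk and Lmod1, 3 of 7 against 3.38% of all genes. They overlapped in Myh11, Des, Tagln and Cnn1, and Tagln and Cnn1 were mixed in direction within equal replicate numbers. The 10 fibroblast and pericyte markers summed to 83.2, 136 and 127 CPM against 84.0, 175 and 151 CPM. Of these 8 were tested, 7 were above 0 and 0 were called, and Gli1 and Meg3 did not exceed 0.513 CPM in any library. The 9 endothelial markers summed to 325 to 418 CPM in IRI and 331 to 403 CPM in congested IRI. They went in both directions, with 5 above 0 and 4 below, and 0 were called. Every congested library was higher in Pecam1 and Cdh5, 2 of 9 against 3.38% of all genes. Within equal replicate numbers, 3 of the 9 were higher in all 3 and 2 (Plvap and Emcn) lower, against 13.1% of all genes in each direction. The part of these cells in the collagen values was not tested.

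**Figure D5:**
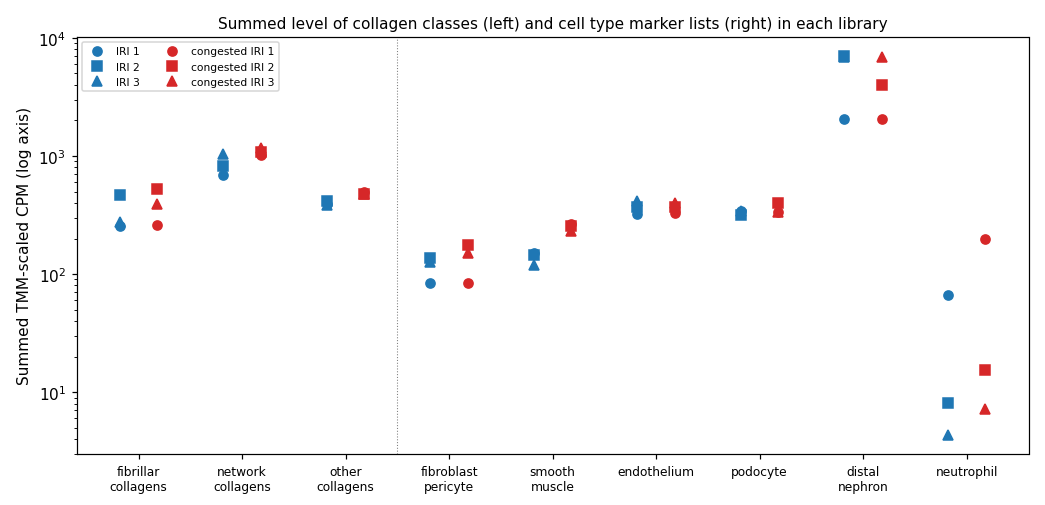
Summed CPM of the 3 collagen classes (left of the dotted line) and of 6 cell type marker lists (right) in each library on a log axis, with IRI in blue, congested IRI in red and the replicate number by marker. The smooth muscle sum and the sum of the other collagens do not overlap between groups, and the circles (number 1) stand apart in the distal nephron and neutrophil lists.

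Genes that modify, export, process, link and bind collagen were counted in 6 lists, and edgeR called 0 members of any list, with or without the block. Tested members numbered 14 for proline and lysine modification, 12 for folding and export and 7 for propeptide removal. They numbered 7 for cross-linking, 11 for fibril-associated genes and 8 for receptors. Without the block, 1 member of these lists, Lox, was higher at an unadjusted p under 0.05, against 0.979% of all genes, and 0 were lower, against 1.02%. With the replicate block, 6 were higher (Lox, Pxdn, Aebp1, Postn, Itga2 and Ddr2), against 4.06%, and 0 were lower, against 2.99%. These were 2 of the 7 cross-linking genes, 2 of the 11 fibril-associated genes and 2 of the 8 receptors, with 0 in the other lists. All 7 cross-linking genes had a log2 fold change above 0, against 49.7% of all genes. Their median was 0.44, against -0.00 over all genes. Lox, the lysyl oxidase that starts cross-links between fibrillar chains, was at 4.29, 2.30 and 2.56 CPM in IRI and 7.63, 6.01 and 4.08 CPM in congested IRI. Its log2 fold change was 0.95 (SE 0.38) (edgeR adjusted p = 0.935), and only the lowest congested and highest IRI library overlapped. Pxdn, the peroxidase that cross-links type IV collagen, was at 28.9, 21.4 and 25.5 CPM against 44.3, 31.2 and 30.7 CPM, without overlap.

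Of the 14 tested genes of proline and lysine modification, 5 were above 0, against 49.7% of all genes, with a median of -0.08. Crtap, part of the prolyl 3-hydroxylase complex, was at 109, 101 and 86.3 CPM in IRI and 77.9, 72.0 and 81.0 CPM in congested IRI, with every congested library lower. P4hb, the shared subunit of prolyl 4-hydroxylase and a disulfide isomerase, was at 1015, 1269 and 1044 CPM against 811, 975 and 1039 CPM. Their groups overlapped for P4hb and not for Crtap. In the folding and export list 9 of 12 were above 0, against the same 49.7%, with a median of 0.19. Sec24d, a coat protein of the vesicles that carry procollagen, was at 20.6, 26.7 and 29.9 CPM against 33.9, 33.3 and 33.2 CPM, without overlap, and the chaperone Hspa5 was at 1905, 1939 and 1094 CPM against 1188, 1350 and 1205 CPM.

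Propeptide removal had 6 of 7 tested genes above 0, against 49.7% of all genes, and a median of 0.18. Adamts14, an N-propeptidase, was at 1.11, 0.683 and 0.265 CPM in IRI and 1.35, 0.952 and 1.02 CPM in congested IRI, and Furin, which activates propeptidases, at 139, 182 and 291 CPM against 210, 261 and 283 CPM. Fibril-associated proteoglycans and glycoproteins had 10 of 11 above 0, against the same 49.7%, and a median of 0.33. With the replicate block 9 of 11 were above 0. Aebp1, which binds fibrillar collagen, was at 30.5, 40.7 and 28.2 CPM against 44.8, 50.2 and 42.4 CPM, without overlap. Postn, a matricellular protein of remodelling tissue, was at 8.11, 7.68 and 4.86 CPM against 11.3, 25.6 and 6.59 CPM, with congested library 2 the highest.

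Collagen receptors had 8 of 8 tested genes above 0, against 49.7% of all genes, and a median of 0.31. With the replicate block 7 of 8 were above 0. Mrc2 was at 0.02 without the block and -0.04 with it. Itga2, a collagen-binding integrin chain, was at 2.62, 1.62 and 1.32 CPM in IRI and 5.47, 4.61 and 1.65 CPM in congested IRI, where library 3 overlapped the IRI group. Ddr1, a receptor tyrosine kinase that binds collagen, was at 138, 180 and 177 CPM against 218, 206 and 203 CPM, without overlap, with a log2 fold change of 0.34 and a standard error of 0.21 (edgeR adjusted p = 0.935).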

How the data were processed

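The deposited table holds whole-number counts per gene for each library, per the file headers and the values themselves. Per the labels' protocols, libraries were made with a stranded kit that selects mRNA. The submitters' processing notes list STAR 2.7.10a, featureCounts, Subread and build GRCm38, with no role for any of them. Strand setting, multimapping rule and annotation of the counting: not given in the sources used here.

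The test was that of edgeR 4.0.16 in R 4.3.3 (TMM factors, robust quasi-likelihood F test, group as the term, Benjamini-Hochberg over all 14398 genes, called at an adjusted p under 0.05). Standard errors were derived from the F statistic, and a prior count of 2 entered log2 CPM. The fit was tested on simulated data. Alternatives were DESeq2 1.42.0, limma-voom (limma 3.58.1), other scalings and filters, libraries left out, a replicate block, and a length and GC trend (mgcv 1.9.3, basis 6) from the GENCODE annotation of GRCm38, which also gave coordinates and exon lengths and matched 95.5% of tested genes and all 41 collagen genes.

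Deviations from group means had a correlation over genes of 0.719 for the libraries numbered 1, 0.342 for those numbered 2 and 0.427 for those numbered 3, each above 0.1, so the numbers were taken to pair the libraries, although the labels do not say what a number shares. Unequal numbers also correlated, at 0.395 for IRI 2 with congested 3 and 0.242 for IRI 3 with congested 2, so the values set apart number 1 and do not tell 2 from 3. The block lowered the biological coefficient of variation from 0.338 to 0.211. Replicates differed beyond counting noise (chi-square over its degrees of freedom 19.02 to 197.8). Genes named are the 4 of each class with the highest mean CPM, the 3 with the smallest p in each fit, their trimer partners, members whose groups did not overlap, and the 2 genes of smallest p in each pathway list. The names of other collagen genes were added with their values in view. The members and lists were chosen with earlier results of these data known.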

Additional observations from a re-analysis of the deposited data

How the results depend on the processing

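No collagen gene was called, so no call could change direction. The fibrillar median was -0.03 with the length and GC trend removed, and the median of the others was -0.21 without IRI library 1, -0.05 without congested library 2 and -0.12 without congested library 3. The count of called genes was 0 by edgeR with every scaling and filter, by DESeq2 and by limma-voom, and 10 (0 of them collagen genes) by DESeq2 with the replicate block. With single libraries or a replicate number left out it ranged from 0 to 5487 over all genes and from 0 to 6 over collagen genes, and both upper values came from leaving out number 3, and without number 1 or 2 the counts over all genes were 10 and 9. With the replicate block the median log2 fold change was 0.28 over collagen genes, 0.28 fibrillar, 0.44 network-forming and 0.07 other, and no call changed. With the length and GC trend removed the median was 0.065 over collagen genes and 0.21 over network-forming genes, and with the replicate block added 0.079 and 0.21. Total counts in place of TMM gave 0.53 for network-forming genes and moved the median of all genes to 0.10. With libraries left out, the medians ranged from 0.044 to 0.44 over collagen genes, 0.032 to 0.63 fibrillar, 0.39 to 0.69 network-forming (0.49 and 0.65 without numbers 2 and 3) and -0.21 to 0.42 other. The cause of these shifts was not tested. Collagen genes under 10 counts in most libraries could not be compared at this depth.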
